A study of Mus musculus with 8 samples.

Results

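The pyruvate dehydrogenase and TCA cycle enzymes described here are 9 genes, Pdha1, Pdhb, Cs, Idh3a, Idh3b, Idh3g, Ogdh, Mdh1 and Mdh2, chosen by name and found by Ensembl identifier among the 22430 genes of a mouse brain count table. Their mRNAs were measured by Oxford Nanopore (ONT) long-read sequencing in 4 young adult mice at 6 months (6m) and 4 aged mice at 24 months (24m). All 8 animals were C57Bl/6JRj males with no treatment named, and each library came from another mouse, so that n = 4 mice at each age. The tissue is labelled whole brain, and the protocol describes it as a brain hemisphere. The methods describe direct RNA sequencing on a MinION, whereas the sample labels name a poly(A) kit for short reads. Age is the difference between the groups that the labels give. A whole hemisphere mixes all brain cell types, and fewer cells of a type and less RNA per cell cannot be told apart in such samples.

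Pyruvate dehydrogenase turns pyruvate from glycolysis into acetyl-CoA inside mitochondria, and the tricarboxylic acid (TCA) cycle oxidises the acetyl group and hands the electrons to the respiratory chain. Neurons depend heavily on this route for ATP. The cycle also gives the carbon for glutamate and GABA, and the malate dehydrogenases of the cytosol and of the mitochondria together carry reducing equivalents across the inner membrane.

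All 9 genes had a mean of more than 5 counts per library and were tested with 9366 other genes. Levels are given in CPM, counts scaled to a common library total after TMM normalization, and differences as log2FC of 24m over 6m from edgeR's quasi-likelihood test. A gene was called changed at an adjusted p (padj) of at most 0.05 with an absolute log2FC of at least 0.58. Of the 9 members, 2 rose with age, namely Pdha1 and Idh3a. None fell in edgeR, where 2 members were lower at an unadjusted p below 0.05, against 2 in DESeq2 on raw counts, 0 in DESeq2 on quantile-normalized counts and 1 in limma-voom, and no member was called lower by any of these tools. At this unadjusted p, 1504 of all 9375 genes tested were lower in edgeR and 1125 in DESeq2 on raw counts. After quantile normalization they were 1159 in DESeq2 and 1659 in limma-voom. Among all 9375 genes tested, 10.3% were called higher and 4.17% lower at 24m. By the adjusted p alone, 3 members were higher and 0 lower, beside 12.3% and 9.42% of all genes. The median log2FC of the 9 members was -0.04, with values from -0.24 to 1.03, and the median of all genes tested was -0.003.

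The libraries held between 573152 and 1255424 counts, of which the 9 genes took between 0.334% and 0.373%. The aged library 24m replicate 1 stood apart from the other aged libraries. Its counts differed from theirs by a chi-square of 2.73 to 4.07 per degree of freedom, against 1.30 to 1.98 among the other aged pairs and 1.18 to 1.84 among the young pairs. The members' levels summed to 3536 ± 83.7 CPM in young and 3349 ± 192 CPM in aged brains (SD, n = 4), and the ranges of the ages overlapped. Levels of some cell type markers also differed between the ages, where 10.3% of all genes tested were called higher and 4.17% lower. The 8 neuronal markers summed to between 2824 and 2939 CPM at 6m and between 3475 and 3611 CPM at 24m, with 2 of 8 called higher. Of the astrocyte markers, 3 of 6 tested were called higher and 1 lower. The astrocyte sums overlapped, at 2360 to 2871 CPM at 6m and 2360 to 3105 CPM at 24m. Of the oligodendrocyte markers 2 of 6 were called higher, with a sum of 1870 to 2437 CPM at 6m and 2556 to 3448 CPM at 24m. Of the microglial markers, 1 of 4 tested was called higher, with a sum of 248 to 265 CPM at 6m and 311 to 434 CPM at 24m, while the microglial marker Cx3cr1 had no count in 5 of the 8 libraries. No choroid plexus marker (3 tested) and no endothelial marker (1 tested) was called, and the sums of both lists overlapped between the ages. All 5 blood markers were called lower, from a sum of 6090 to 10032 CPM to one of 3350 to 6283 CPM. The part of these shifts in the results that follow was not tested.

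**Figure D1:**
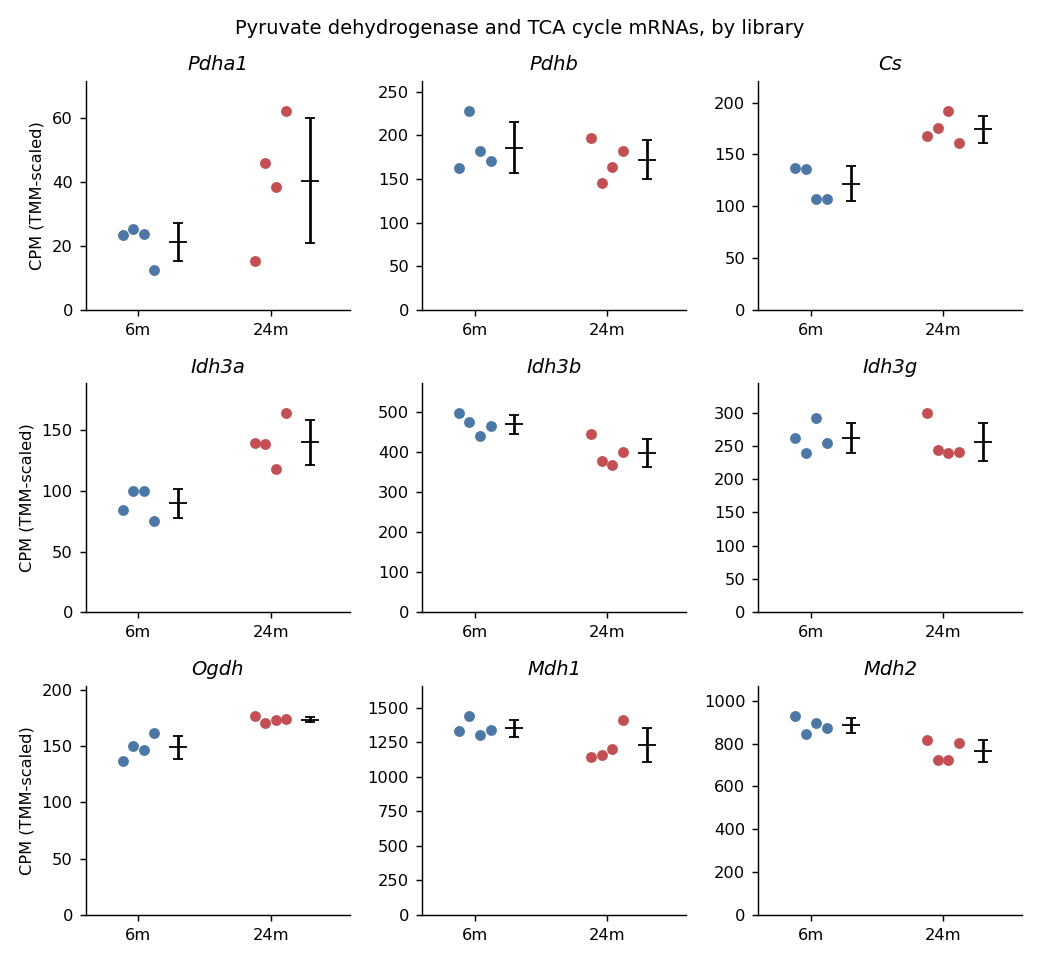
Level of each of the 9 enzyme mRNAs by library, in TMM-scaled CPM on axes that start at 0. Each point is 1 mouse, with 6m in blue and 24m in red, and the bar beside each group gives its mean and SD (n = 4). The points of Idh3a, Cs and Ogdh lie higher at 24m than at 6m without overlap, those of Mdh2 lie lower without overlap, and those of the other genes overlap.

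Per kilobase of canonical transcript, the malate dehydrogenases stood highest of the members at both ages and Pdha1 lowest. Whether counts grow with transcript length in these long-read libraries was not tested, so the division by length may not give the order of abundance. At 6m, Mdh2 stood at 590 ± 23.4 CPM per kb and Mdh1 at 540 ± 24.8, followed by Idh3b at 290 ± 14.3, Idh3g at 166 ± 14.0, Pdhb at 122 ± 19.2, Cs at 41.2 ± 5.72, Idh3a at 34.6 ± 4.65, Ogdh at 21.9 ± 1.54 and Pdha1 at 7.41 ± 2.04 (SD, n = 4). The order of the 9 was the same at 24m. On this scale the neighbours Mdh2 and Mdh1, and Cs and Idh3a, had overlapping libraries at both ages, and no other neighbours did. CPM not divided by length gave another order at 6m, with Mdh1 (1353 ± 62.1 CPM) above Mdh2 (885 ± 35.1) and Cs above Idh3a without overlap, and with Ogdh (149 ± 10.4) higher in the mean than Cs (122 ± 16.9). Subunits that share an enzyme differed in level per length, since Pdhb stood far above Pdha1, and Idh3b and Idh3g stood far above Idh3a. Counted genes on the opposite strand share exon bases with each of these subunits. Of the last 500 canonical bases, they cover 500 in Idh3a, 338 in Pdhb, 178 in Pdha1, 23 in Idh3g and 10 in Idh3b. The part of these overlaps in the levels was not tested.

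Pdha1 (ENSMUSG00000031299, chrX:158904237-158921426, minus strand, GRCm39) encodes the alpha subunit of the first enzyme of the pyruvate dehydrogenase complex, E1, which carries the serines that pyruvate dehydrogenase kinases phosphorylate to switch the complex off. The 6m libraries 1 to 4 held 23.4, 25.3, 23.6 and 12.6 CPM of Pdha1, and the 24m libraries held 15.2, 45.7, 38.4 and 62.1 CPM. Of the aged libraries, 3 lay above all young ones, while 24m replicate 1 lay below 3 of the 4 young libraries. Pdha1 was called higher at 24m, with a log2FC of 1.03 (SE 0.29, 95% interval 0.46 to 1.61, padj = 0.0131, edgeR). These levels rest on 10 to 19 counts per library at 6m and 10 to 81 at 24m. The call was lost without 6m replicate 4 (log2FC 0.85, padj = 0.0564), without 24m replicate 4 (0.74, padj = 0.0902), in DESeq2 on quantile-normalized counts (0.88, padj = 0.0691) and in limma-voom (0.89, padj = 0.0744). Without 24m replicate 1 the log2FC of Pdha1 was 1.26 (padj = 0.00024).

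Pdha1 lies tail to tail with Map3k15, a kinase gene on the opposite strand, and their annotated exons share 716 bases, 603 of them in the canonical Pdha1 transcript. The strand setting of the counting is not given in the sources used here, and without it reads of such a pair cannot be told apart where they overlap. Map3k15 held more counts than Pdha1 in every library. Its level was 123, 145, 148 and 118 CPM in the 6m libraries and 71.6, 96.7, 78.1 and 140 CPM in the 24m libraries. The log2FC of Map3k15 was -0.42 (padj = 0.0738), which did not pass the test. The sum of both genes was 155 ± 19.8 CPM in young and 137 ± 49.2 CPM in aged brains (SD, n = 4). With the counts of overlapping genes added to each member, an alternative chosen after seeing the data, the row of Pdha1 changed sign to a log2FC of -0.13 (padj = 0.640). The part of the overlap in the Pdha1 result was not tested.

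**Figure D2:**
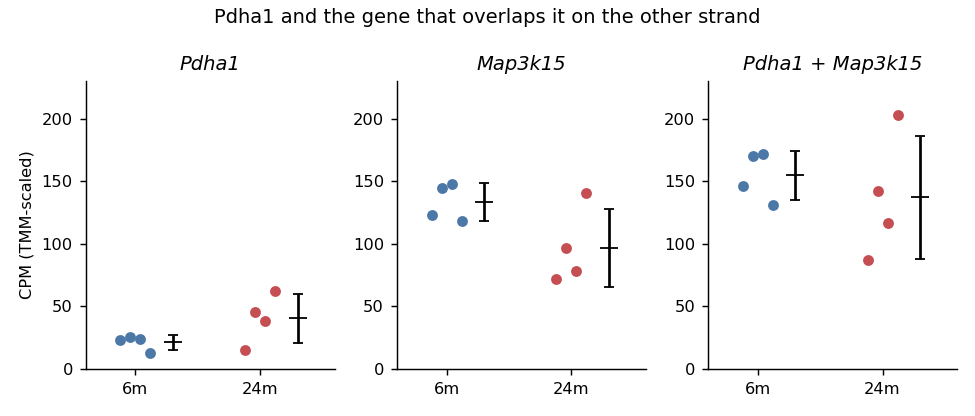
Levels of Pdha1, of Map3k15, which overlaps it on the other strand, and of their sum by library, in TMM-scaled CPM on a shared axis that starts at 0. Each point is 1 mouse and each bar gives the mean and SD (n = 4). Pdha1 rises from a mean of 21.2 to 40.4 CPM, whereas the sum has a mean of 155 CPM at 6m and 137 CPM at 24m with overlapping points.

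Pdhb (ENSMUSG00000021748, chr14:14296739-14304802, plus strand) encodes the beta subunit, which joins the alpha subunit in the E1 tetramer. Its level was 162, 228, 182 and 171 CPM in the 6m libraries and 197, 146, 164 and 182 CPM in the 24m libraries. The ages overlapped, and the log2FC was -0.10 (95% interval -0.35 to 0.15, padj = 0.608). A pseudogene that is not in the count table, Gm6123, matches 70.9% of the Pdhb transcript at 97.0% identity, so reads of the pair may have been split. Pdhb also shares 1363 exon bases with Pxk on the opposite strand. Pxk stood at 17.3 ± 1.52 CPM at 6m and 20.6 ± 1.41 CPM at 24m. Within a library, Pdha1 made up 10.2% ± 2.49 of the counts of both subunits at 6m and 18.9% ± 8.27 at 24m (SD, n = 4). This share overlapped between the ages, and the difference of 8.65 percentage points did not pass a two-sided exact permutation test (p = 0.1143, adjusted p = 0.1905 over 5 shares). In 24m replicate 1 the share was 7.19% (95% Wilson interval 3.95 to 12.7, counting error only), beside 6.85% in 6m replicate 4 (3.76 to 12.1).

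Among the other genes of the complex and its regulators, 6 of 10 could be tested and none was called, with a median log2FC of 0.05. Of all genes tested, 10.3% were called higher and 4.17% lower. At an unadjusted p below 0.05, 2 of these 6 were higher in edgeR and 1 in each of the other tools. Of all 9375 genes, 1715 were so in edgeR, 1334 in DESeq2 on raw counts, 1192 after quantile normalization and 1472 in limma-voom. Dlat, named after its values were seen, encodes E2, the acetyltransferase core of the complex, and had a log2FC of 0.55 (padj = 0.0769). Pdk2, a kinase that inhibits E1, went from 128 ± 26.4 to 167 ± 19.0 CPM (log2FC 0.37, padj = 0.0562). Exons of Pdk2 share 1989 bases with Samd14 on the opposite strand. Dld, the E3 dehydrogenase that several complexes share, had a log2FC of -0.03 (padj = 0.913). The kinases Pdk1 and Pdk4, the phosphatase Pdp2 and the phosphatase regulator Pdpr fell below the count minimum, so a difference in them was not detectable at this depth.

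Cs (ENSMUSG00000005683, chr10:128172837-128198363, plus strand) encodes citrate synthase, which joins acetyl-CoA to oxaloacetate in the opening step of the cycle. Its level was 137, 136, 107 and 107 CPM in the 6m libraries and 168, 176, 192 and 161 CPM in the 24m libraries. All 4 aged libraries lay above all 4 young ones. The mean was 122 ± 16.9 CPM in young and 174 ± 13.3 CPM in aged brains (SD, n = 4), and the log2FC of 0.52 (SE 0.13, 95% interval 0.27 to 0.77, padj = 0.0045) passed the adjusted p but not the fold. Cs passed both when the library numbered 1 or 2 at 6m or 24m replicate 4 was left out, with a log2FC of 0.60, 0.58 and 0.58, and when libraries were scaled by their totals alone (0.63) or both libraries numbered 1 were left out (0.61). It shares 56 exon bases with Coq10a on the opposite strand, and a related gene in the table, Csl, matches 51.6% of the Cs transcript at 91.9% identity.

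Idh3a (ENSMUSG00000032279, chr9:54493575-54514730, plus strand) encodes the catalytic alpha subunit of the NAD-dependent isocitrate dehydrogenase, an enzyme that controls flux through the cycle and that ADP and calcium activate. Its level was 83.7, 99.5, 99.6 and 75.3 CPM in the 6m libraries and 139, 138, 118 and 163 CPM in the 24m libraries. Every aged library lay above every young one. The log2FC was 0.66 (SE 0.14, 95% interval 0.38 to 0.94, padj = 0.00184), and Idh3a was called higher. It was called under every other setting tried, leaving out each library included, except when the counts of overlapping genes were added. The final 500 bases of its canonical transcript lie wholly within exons of Acsbg1, an acyl-CoA synthetase gene on the opposite strand, and 1875 exon bases are shared in all. Acsbg1 stood at 249 ± 35 CPM in young and 245 ± 26.7 CPM in aged brains (SD, n = 4), a log2FC of -0.04, and the sum of the pair went from 338 ± 23.8 to 384 ± 23.4 CPM. With the counts of Acsbg1 added, the log2FC of the Idh3a row was 0.18 (padj = 0.183).

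Idh3b (ENSMUSG00000027406, chr2:130121227-130126467, minus strand) encodes the beta subunit, and Idh3g (ENSMUSG00000002010, chrX:72820644-72830719, minus strand) the gamma subunit, which together regulate the enzyme. Idh3b stood at 496, 476, 441 and 463 CPM in the 6m libraries and at 444, 376, 369 and 400 CPM in the 24m libraries. The highest aged library, 24m replicate 1, lay just above the lowest young one, and the log2FC of Idh3b was -0.24 (95% interval -0.42 to -0.06, padj = 0.0596), which did not pass the test. Idh3g stood at 262, 239, 291 and 254 CPM in the 6m libraries and at 299, 244, 239 and 241 CPM in the 24m libraries. Its ages overlapped, and the log2FC was -0.04 (95% interval -0.25 to 0.17, padj = 0.819). Idh3g shares 301 exon bases with Ssr4 on the opposite strand, a subunit of the translocon-associated complex whose log2FC was -0.38 (padj = 0.0255). Idh3g also shares 1437 exon bases with Srpk3 on the opposite strand, 23 of them in its canonical transcript.

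The composition of the Idh3 mRNAs within a library does not depend on the scaling between libraries. Idh3a made up 10.9% ± 1.39 of the Idh3 counts at 6m and 17.6% ± 2.08 at 24m (SD, n = 4). The young libraries lay between 9.51% and 12.2% and the aged ones between 15.7% and 20.3%. Idh3b made up 57.2% ± 2.82 at 6m and 50.1% ± 0.552 at 24m, with the young libraries between 53.0% and 58.9% and the aged ones between 49.6% and 50.8%. For both shares the ages did not overlap. The two-sided exact permutation p of each was 0.0286, the smallest that 4 against 4 mice can give. The adjusted p was 0.0714 over the 5 shares, so neither passed the threshold after adjustment. Given the p of the other shares, 0.0714 is the lowest adjusted p that either could have reached. Idh3g made up 31.9% ± 2.38 and 32.3% ± 1.70 (exact permutation p = 0.8286, adjusted p = 0.8286). These shares rest on at least 450 Idh3 counts per library and were computed from counts as deposited, overlaps included. They add up to the whole of the Idh3 counts in a library. The higher share of Idh3a and the lower share of Idh3b are therefore not separate results.

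**Figure D3:**
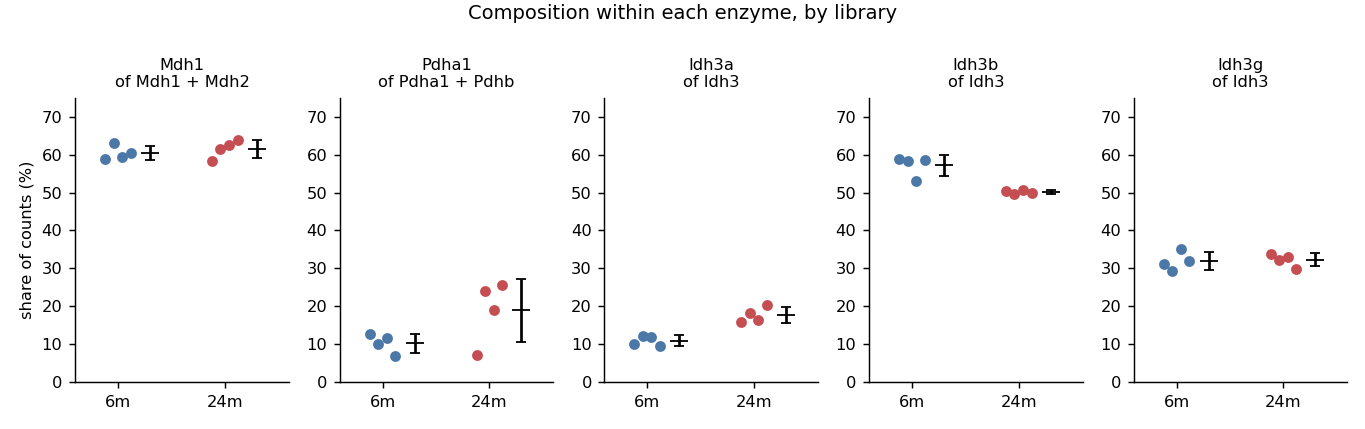
Share of counts within each enzyme by library, in percent on a shared axis that starts at 0, for Mdh1 among both malate dehydrogenases, Pdha1 among both E1 subunits and the subunits of Idh3. Each point is 1 mouse and each bar gives the mean and SD (n = 4). The share of Idh3a lies higher and that of Idh3b lower at 24m with no overlap between the ages, and the shares of Mdh1, Pdha1 and Idh3g overlap.

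The sequence just upstream of the annotated start is shown for Pdha1 and Idh3a, which were called higher, and for Idh3b, the subunit whose share of the same enzyme was lower. Each is printed 5′ to 3′ on the strand of its gene, from GRCm39 with GENCODE vM39, and ends at the base before the outermost annotated start. The windows are chrX:158921427-158921675 (minus strand), chr9:54493362-54493574 (plus strand) and chr2:130126468-130126717 (minus strand). Capitals mark a CCAAT box, read as ATTGG on the other strand.
Pdha1: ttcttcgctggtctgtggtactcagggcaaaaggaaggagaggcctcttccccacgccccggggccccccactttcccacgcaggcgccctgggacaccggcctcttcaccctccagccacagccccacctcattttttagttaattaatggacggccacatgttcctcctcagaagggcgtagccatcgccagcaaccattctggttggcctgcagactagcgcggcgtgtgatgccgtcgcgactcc
Idh3a: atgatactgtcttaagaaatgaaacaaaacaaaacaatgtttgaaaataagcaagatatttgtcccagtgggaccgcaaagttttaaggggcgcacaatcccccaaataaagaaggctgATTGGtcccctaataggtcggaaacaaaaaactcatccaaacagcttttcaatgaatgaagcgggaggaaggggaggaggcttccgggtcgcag
Idh3b: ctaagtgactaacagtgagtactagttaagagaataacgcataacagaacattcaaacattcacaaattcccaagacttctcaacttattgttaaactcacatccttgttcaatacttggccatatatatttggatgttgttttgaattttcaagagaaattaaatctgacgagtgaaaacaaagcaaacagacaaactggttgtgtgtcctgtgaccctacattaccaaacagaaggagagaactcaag
In the 250 bases before the canonical start, the G and C content was 61.6% for Pdha1, 46.4% for Idh3a and 35.2% for Idh3b, beside a median of 56.8% over 9349 tested genes. In windows of that length, both strands were searched for the letters of 8 motifs. CCAAT was present in 5 of the 9 members and in 35.9% of all windows, and the Sp1 box GGGCGG in 3 of 9 and in 48.6%. The ETS letters CCGGAAGT were found in Mdh2 and in 3.98% of all windows. The letters of nuclear respiratory factor 1 (in 5.93% of all windows), of the estrogen-related receptor half-site (AAGGTCA, 3.23%), of the cyclic AMP response element (TGACGTCA, 2.16%), of the E-box (CACGTG, 7.89%) and of YY1 (AAGATGG, 4.55%) were in none of the 9 windows.

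Ogdh (ENSMUSG00000020456, chr11:6241551-6309233, plus strand) encodes the E1 subunit of the 2-oxoglutarate dehydrogenase complex, which makes succinyl-CoA. Its level was 137, 150, 147 and 162 CPM in the 6m libraries and 177, 171, 173 and 174 CPM in the 24m libraries. The aged libraries all lay above the young ones and spread over a narrow range. The log2FC was 0.22 (95% interval -0.001 to 0.44, padj = 0.169), which did not pass the test.

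Mdh1 (ENSMUSG00000020321, chr11:21506423-21522367, minus strand) encodes the malate dehydrogenase of the cytosol, and Mdh2 (ENSMUSG00000019179, chr5:135807292-135820882, plus strand) that of the mitochondria, which closes the cycle by making oxaloacetate. Mdh1 stood at 1331, 1443, 1301 and 1337 CPM in the 6m libraries and at 1148, 1158, 1204 and 1412 CPM in the 24m libraries. The ages overlapped through 24m replicate 4, and the log2FC of Mdh1 was -0.13 (95% interval -0.31 to 0.04, padj = 0.298). Exons of Mdh1 share 534 bases with Wdpcp on the opposite strand, which stood at 4.62 ± 2.10 CPM at 6m. Mdh2 stood at 929, 846, 894 and 873 CPM in the 6m libraries and at 819, 725, 722 and 801 CPM in the 24m libraries. Every aged library lay below every young one in TMM-scaled CPM, but the log2FC of -0.21 (95% interval -0.38 to -0.04, padj = 0.079) did not pass the test. Under other settings the log2FC of Mdh2 ran from -0.23 without 24m replicate 1 (padj = 0.012, edgeR) to -0.03 with quantile normalization. The latter held in DESeq2 (padj = 0.875) and in limma-voom (padj = 0.812). Mdh1 made up 60.4% ± 1.87 of the counts of both at 6m and 61.6% ± 2.32 at 24m (SD, n = 4, exact permutation p = 0.4857, adjusted p = 0.6071), a difference of 1.13 percentage points. Across the 9 members, 3 had all aged libraries above all young ones and 1 had them below, beside 11.1% and 9.96% of all genes tested.

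The genes that complete the pathway were taken from 3 lists of 41 genes in all, of which 36 were tested, 1 was called higher and 2 lower, with a median log2FC of 0.03. Among all genes tested, 10.3% were called higher and 4.17% lower. The 12 other TCA cycle enzymes had a median log2FC of -0.14, with 0 called higher and 2 called lower. At an unadjusted p below 0.05, 1 of these 12 was higher in edgeR and in both DESeq2 runs and 2 in limma-voom, and no tool called one higher. At the same unadjusted p, 6 of the 12 were lower in edgeR, 5 in DESeq2 on raw counts, 3 after quantile normalization and 5 in limma-voom. At that p, 1504 of all 9375 genes were lower in edgeR, 1125 in DESeq2 on raw counts, 1159 after quantile normalization and 1659 in limma-voom. Those higher were 1715, 1334, 1192 and 1472 in the same order. Sucla2, the ATP-forming beta subunit of succinyl-CoA ligase, fell from 101 ± 7.17 to 59.1 ± 6.27 CPM (SD, n = 4, log2FC -0.76, padj = 0.000618). The young libraries of Sucla2 lay between 93.5 and 108 CPM and the aged ones between 49.9 and 63.7 CPM. Ogdhl, a brain-enriched relative of Ogdh, fell from 110 ± 32.5 to 74.0 ± 34.8 CPM (log2FC -0.65, padj = 0.0429), with overlapping libraries, and lost its call when any of 6 of the 8 libraries was left out, with library sizes alone (padj = 0.0969) and in DESeq2 on raw (padj = 0.363) and on quantile-normalized counts (padj = 0.334). Sdhb, the iron-sulfur subunit of succinate dehydrogenase, went from 579 ± 36.6 to 478 ± 86.2 CPM (log2FC -0.28, padj = 0.0569).

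Among the 18 tested genes of pyruvate supply, anaplerosis and the malate-aspartate shuttle, 1 was called higher and none lower, beside 10.3% and 4.17% of all genes tested. The median log2FC of the 18 was 0.09. At an unadjusted p below 0.05, 1 of the 18 was lower in edgeR, in DESeq2 on raw counts and in limma-voom and 0 in DESeq2 on quantile-normalized counts, and no tool called one lower. Of all 9375 genes, 1504, 1125, 1659 and 1159 were lower at that p, in the same order of tools. Got2, the mitochondrial aspartate aminotransferase of the shuttle, rose from 177 ± 20.3 to 277 ± 57.6 CPM (SD, n = 4, log2FC 0.64, padj = 0.00134). Its aged libraries held 340, 303, 261 and 206 CPM, all above the young range of 154 to 195 CPM. Without 24m replicate 1 the log2FC of Got2 was 0.54, under the fold limit. The lactate dehydrogenase subunits, which interconvert pyruvate and lactate, gave a log2FC of -0.17 for Ldhb (padj = 0.143) and -0.17 for Ldha (padj = 0.171). Processed pseudogenes resemble both subunits and Got2, so some of their reads may have been split.

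**Figure D4:**
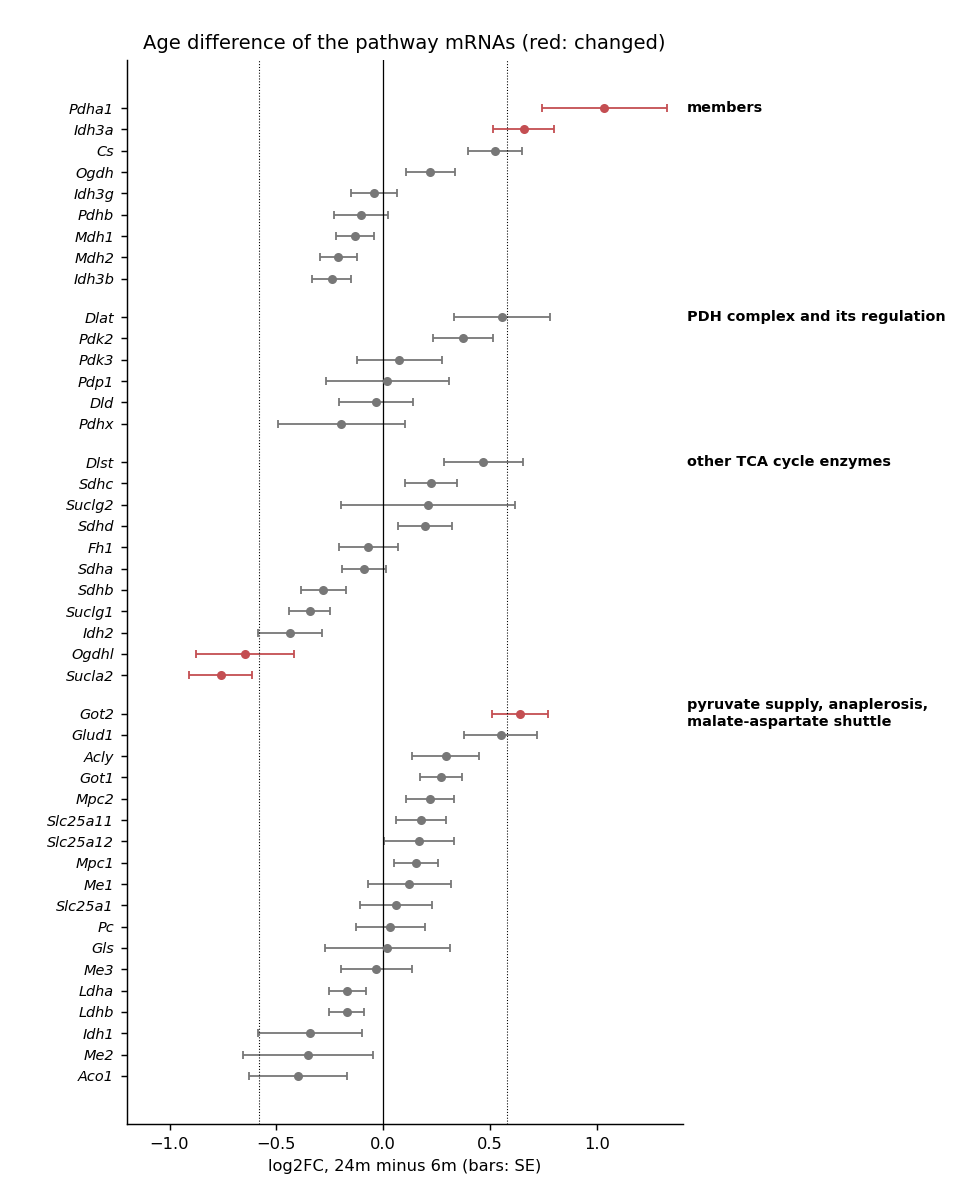
log2FC of 24m over 6m with its SE for the 9 members and for 35 of the 36 tested genes of the 3 pathway lists, ordered by value within each list. Red marks the genes called changed, and dotted lines stand at an absolute log2FC of 0.58. Pdha1, Idh3a and Got2 lie to the right of the dotted lines and Sucla2 and Ogdhl to the left.

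The members' differences were ordered by transcript length and by level, as a description over 9 genes that share the same libraries. The 4 members with a positive log2FC, Pdha1, Idh3a, Cs and Ogdh, have canonical transcripts of 2864, 2586, 2952 and 6800 bases. Those of the other 5 run from 1502 to 2504 bases. Spearman's rho between length and log2FC was 0.67 over the members and 0.13 over the 9349 tested genes with a length. Between mean CPM and log2FC it was -0.92 over the members and -0.14 over these genes. Genes within 20% of the length of Pdha1 had a median log2FC of 0.06, beside 1.03 for Pdha1 itself. The medians at like length were 0.03 beside 0.66 for Idh3a, 0.08 beside 0.52 for Cs and 0.07 beside 0.22 for Ogdh. They were -0.09 beside -0.10 for Pdhb, -0.10 beside -0.21 for Mdh2 and -0.08 beside -0.24 for Idh3b. For Idh3g the median was -0.09 beside -0.04, and for Mdh1 it was 0.02 beside -0.13. Of the genes near the length of Pdha1, 11.7% were called higher, against 2.52% of those near the length of Mdh2. The share of nuclear-encoded counts on transcripts over 2500 bases was 36.8% to 37.3% at 6m and 37.5% to 40.8% at 24m, and the part of this shift in the results was not tested. With TMM scaling computed within 10 classes of transcript length, an alternative chosen after seeing the data, Pdha1 (0.96) and Idh3a (0.63) were again called and Mdh2 went to -0.10. The sign of the log2FC changed with the setting for 3 members that were never called, namely Idh3g in 5 settings, Pdhb in 3 and Mdh1 in 2, both of the latter with quantile normalization, where Mdh1 reached 0.10.

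**Figure D5:**
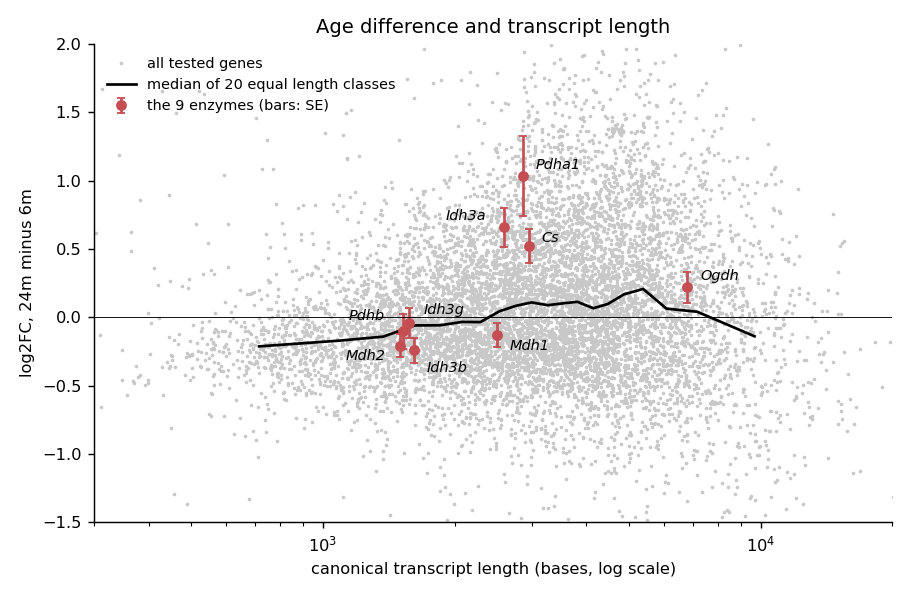
log2FC of 24m over 6m against canonical transcript length on a log axis, with the 9 enzymes in red (bars: SE), all tested genes in grey and the median of 20 equal length classes as a line. Genes beyond the axis limits are not drawn. The members with transcripts over 2504 bases lie above 0 and the others below under TMM scaling, where Idh3g, Pdhb and Mdh1 change sign in some other settings, and the median line runs from below 0 for short transcripts to above 0 around the lengths of Pdha1, Cs and Ogdh.

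The members did not vary as a block across the 8 libraries. The correlation of each member's log2 CPM with the mean of the other members ran from -0.24 for Cs to 0.40 for Pdhb, over 8 libraries that share the scaling. The tested genes most like the mean of the 9 members over these libraries were Chmp5 (Pearson's r 0.97), Capn3 (0.92), Mapk7 (0.89), Brinp3 (0.89) and Avpi1 (0.89), given as a description of 8 points with no test.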

How the data were processed

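The authors sequenced RNA of 8 mouse brain hemispheres by ONT, mapped the reads to GRCm39 with minimap2 (2.24 in the submitters' processing notes) and assigned them to genes with featureCounts. Raw read counts from that step were deposited for 22430 genes, with no normalization by the authors. The strand, overlap and multi-mapping settings of the counting are not given in the sources used here. The authors' later steps (low-count filter, quantile and row-wise median normalization, DESeq2) are not part of these values, and normalization by row medians was left out here.

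Counts were tested on 9375 genes with a mean above 5 counts per library, with TMM scaling and the quasi-likelihood test of edgeR 4.0.16 (limma 3.58.1, R 4.3.3) and Benjamini-Hochberg adjustment over all of them. Limits were an adjusted p of 0.05 and an absolute log2FC of 0.58, as in the methods of the study. The procedure was tested on simulated counts with known changes. Those counts were drawn with the dispersions that edgeR had fitted, and 100 of 9195 genes were changed at each size, with random signs. There edgeR recovered 68% of changes of an absolute log2FC of 1 and 97% of those of 2, with 4 false calls. In the data 1359 genes were called, 71.2% of them higher, and 1 aged library stood apart, so these rates need not hold there. Smaller changes, such as those of most members, were not simulated. Shares were compared by exact permutation over 35 relabelings. Totals of 573152 to 1255424 counts per library limit the precision of rare mRNAs, and intervals of shares cover counting error only. The mice are separate animals, so the spread between libraries holds both biological and technical variation.

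Positions, lengths and overlaps came from GENCODE vM39 (bedtools 2.31.1), copies from BLAST 2.17.0 and sequences from GRCm39 (samtools 1.23.1). By identifier, 22281 genes were found in this annotation. The members and lists were chosen with earlier results of these data known. All members are named, and from each pathway list every called gene and the 2 most abundant genes not called, of which 1 is not reported here. Like genes are the 5 with the highest correlation to the members' mean. The alternatives were other scalings, filters and tools (DESeq2 1.42.0, limma-voom), a replicate block and leaving out each library. Overlap-summed counts, scaling within length classes and leaving out both libraries numbered 1 were added after seeing the data. Replicate numbers are shared between the ages, but deviations of same-numbered libraries correlated at only -0.16 to 0.06, so the numbers were not treated as pairs.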

Additional observations from a re-analysis of the deposited data

Results flagged for a closer look

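Groups of 4 libraries were examined at each age for the levels of the members and pathway genes, the members' summed level, the shares and the total counts. The mitochondrially encoded percentage and the share of nuclear-encoded counts on transcripts over 2500 bases were examined as well. Of these 106 groups, 8 had 1 library whose gap to the nearest other passed Dixon's 95% critical value, and chance gives about 1 in 20, or 5.3. Among the members, Pdha1 stood at 12.6 CPM in 6m replicate 4, against 23.4 to 25.3 CPM in the other young libraries, and without this library Pdha1 was no longer called (log2FC 0.85). Idh3g stood at 299 CPM in 24m replicate 1, against 239 to 244 CPM in the other aged libraries. The share of Idh3b among the Idh3 counts was 53.0% in 6m replicate 3, against 58.4% to 58.9% in the other young libraries. In the pathway lists, Pdk2 stood at 139 CPM in 24m replicate 4 (others 174 to 179) and Sdha, the flavoprotein subunit of succinate dehydrogenase, at 382 CPM in 24m replicate 4 (others 298 to 304). In 6m replicate 3, pyruvate carboxylase (Pc) stood at 85.9 CPM (others 114 to 119) and the mitochondrial malic enzyme Me3 at 42.3 CPM (others 54.0 to 54.2). The total of 6m replicate 2 was 573152 counts, against 818963 to 843706 in the other young libraries.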

How the results depend on the processing

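Of 207 comparisons of a member's log2FC with its value under another setting, 195 kept their call or the lack of one, 6 gained and 5 lost the call and 1 called value changed sign, namely Pdha1 at -0.13 with overlapping genes' counts added. The members called higher were 2, but 1 in DESeq2 on quantile-normalized counts and in limma-voom, 0 with overlapping counts added, 3 with library sizes alone, by the adjusted p alone and without both libraries numbered 1, and 1 to 3 when 1 library was left out. No member was called lower under any of these settings. Pathway genes called higher were 1, but 3 with library sizes alone and 2 with more than 5 counts in every library, filterByExpr, limma-voom, the adjusted p alone or scaling within length classes (1 to 2 without 1 library). Those called lower were 2, but 1 with library sizes alone and in both DESeq2 runs and 4 by the adjusted p alone (1 to 2 without 1 library). Over all genes, the 968 called higher became 629 with DESeq2 (547 after quantile normalization), and the 391 called lower became 223 with library sizes alone, 222 with more than 5 counts in every library, 205 in DESeq2 on raw counts and 883 by the adjusted p alone. Without 1 library they ranged from 713 to 1132 and from 276 to 462. Library sizes alone moved the median of all genes to a log2FC of 0.10, and 84.5% of called genes were then higher, against 71.2% before and 59.2% in limma-voom. No share passed the threshold with all libraries, where the lowest adjusted p was 0.0714 (exact permutation test), and none passed under another setting. The smallest p of this test does not fall when a library is left out. The absence of a pass is therefore no sign of a stable result. Among the shares, only that of Idh3g changed direction. Their ranges without 1 library were 5.82 to 7.34 percentage points for Idh3a, -8.49 to -6.52 for Idh3b, -0.47 to 1.43 for Idh3g, 0.38 to 2.19 for Mdh1 and 6.46 to 12.6 for Pdha1. With the replicate block, 940 genes were called higher and 368 lower, and the calls of members and pathway genes were as before. The same-numbered libraries share only a number. Pdha1 rests on 10 to 81 counts per library. The cause of these changes was not tested.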

Other observations

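Among the pathway genes not described so far, 3 passed the adjusted p but not the fold, chosen after their values were seen. Idh2, the NADP-dependent isocitrate dehydrogenase of mitochondria, went from 79.9 ± 3.58 to 58.7 ± 7.94 CPM (SD, n = 4, log2FC -0.44, padj = 0.0391, edgeR), with all aged libraries below all young ones. Suclg1, the alpha subunit of succinyl-CoA ligase that pairs with Sucla2, went from 327 ± 19.5 to 258 ± 17.8 CPM (log2FC -0.34, padj = 0.0134), again without overlap. Glud1, which links glutamate to 2-oxoglutarate, went from 89.7 ± 22.0 to 127 ± 29.1 CPM (log2FC 0.55, padj = 0.022), with overlapping libraries. Exons of Idh2 share 2491 bases with Zfp710 and those of Glud1 share 717 bases with Shld2, both on the opposite strand.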
